A study of Mus musculus with 10 samples.

Results

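Cyclin-dependent kinases, the phosphatases that switch them on and the proteins that hold them off were followed in mouse male germ cells up to pachytene. No later stage of meiosis had a fraction of its own. The set consisted of 10 genes chosen by name: the kinases Cdk1, Cdk2, Cdk4 and Cdk6, the phosphatases Cdc25a, Cdc25b and Cdc25c, and the inhibitors Cdkn1a, Cdkn1b and Cdkn2d. All 10 were found among the 18193 genes named by the arrays, with 20 probe sets between them. Messenger RNA had been measured in 5 groups of C57BL/6 males. The spermatogonia were Percoll fraction 2 from 8-day-old testes, the leptotene/zygotene spermatocytes fraction 5 from 12-day-old testes and the pachytene spermatocytes fraction 8 from 15-day-old testes; the whole testis group and a mix of 11 somatic organs (brain, spleen, skin, muscle, kidney, liver, heart, lung and 3 parts of the gut: stomach, intestine and colon) came from 15-day-old mice. No group carried a mutation or a treatment in the labels, and by its title the study searched for genes that act in segregating chromosomes at meiosis I.

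A cyclin-dependent kinase is active when it is bound to a cyclin and when the inhibitory phosphates near its active site have been removed by a CDC25 phosphatase. The INK4 inhibitors, to which Cdkn2d belongs, bind CDK4 and CDK6, whereas the CIP/KIP inhibitors encoded by Cdkn1a and Cdkn1b bind cyclin-CDK complexes more widely. CDK4 and CDK6 act with D-type cyclins in G1, CDK2 in S phase and, in spermatocytes, at telomeres and recombination sites, and CDK1 drives entry into division; male mice without Cdk2 arrest in meiotic prophase.

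Each group had 2 samples, but sample 1 of every group was hybridised to one array design and sample 2 to its companion, which carries other probe sets. Apart from 100 probe sets placed on both designs, each probe set was therefore read on 1 array per group. Of the 10 genes only Cdc25c passed the floor on both designs, by different probe sets. No value of a member had a replicate by the same probe set, and no p-value is given; precision is limited by how few arrays there were. The error of a log2 difference was taken from those 100 probe sets and lay between 0.18 and 0.31 over the 10 pairs of groups. The sources do not say whether that spread includes differences between preparations. The same error was applied to bright and dim probe sets, and whether it holds near the floor was not tested. Probe sets of the same gene could disagree by more, as given below for Cdk6 and Cdc25a. A gene is called higher or lower when its log2 difference exceeded the 95% limit of that error, and is said to have risen or fallen when it differed by at least 4-fold. Signals at or under a floor (87.3 on the first design, 47.0 on the second) were set to it, and differences against the floor are lower bounds. Each group was a bulk RNA sample, in which fewer cells of a type and less RNA per cell cannot be told apart.

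The fractions were checked against marker lists of the cell types they could hold. Of 10 pachytene markers on the first design, 10 were above the floor in the pachytene fraction, 9 in leptotene/zygotene and 2 in spermatogonia, and their summed signal was 75563, 5583 and 1533. The 9 spermatogonial markers on that design summed to 9948 in spermatogonia, 12034 in leptotene/zygotene and 3772 in pachytene, so they were not highest in the fraction labelled spermatogonia. The 9 leptotene/zygotene markers on that design summed to 2724 in spermatogonia, 6674 in leptotene/zygotene, 5691 in pachytene and 8051 in whole testis. The 3 on the second design summed to 2581 in leptotene/zygotene and were higher in pachytene, at 4211. The fractions also held RNA of testicular somatic cells. The 11 Sertoli markers summed to 30560, 26588 and 6118 in the 3 fractions in the same order (19869 in whole testis), with only Amh below the floor in pachytene. The 5 Leydig markers summed to 9008, 4841 and 638 (3402 in whole testis), with only Cyp11a1 below the floor in pachytene. The 8 peritubular and stromal markers summed to 36102, 17775 and 11326, with Pecam1 below the floor in all 3, and the 6 macrophage markers to 889, 1720 and 3539, with C1qa below the floor in spermatogonia. From leptotene/zygotene to pachytene all 11 Sertoli markers were lower (10 in 3 of the other 4 scalings), as were all 5 Leydig markers in each scaling. The 9 markers of somatic organs summed to 979, 842 and 1279 in the 3 fractions, 14569 in whole testis and 63681 in the somatic mix. In the fractions 5, 3 and 4 of the 9 were above the floor. Apoa1 (9350) and Alb (3907) were the highest of them in whole testis. The part of these cells and organs in the results below was not tested.

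**Figure D1:**
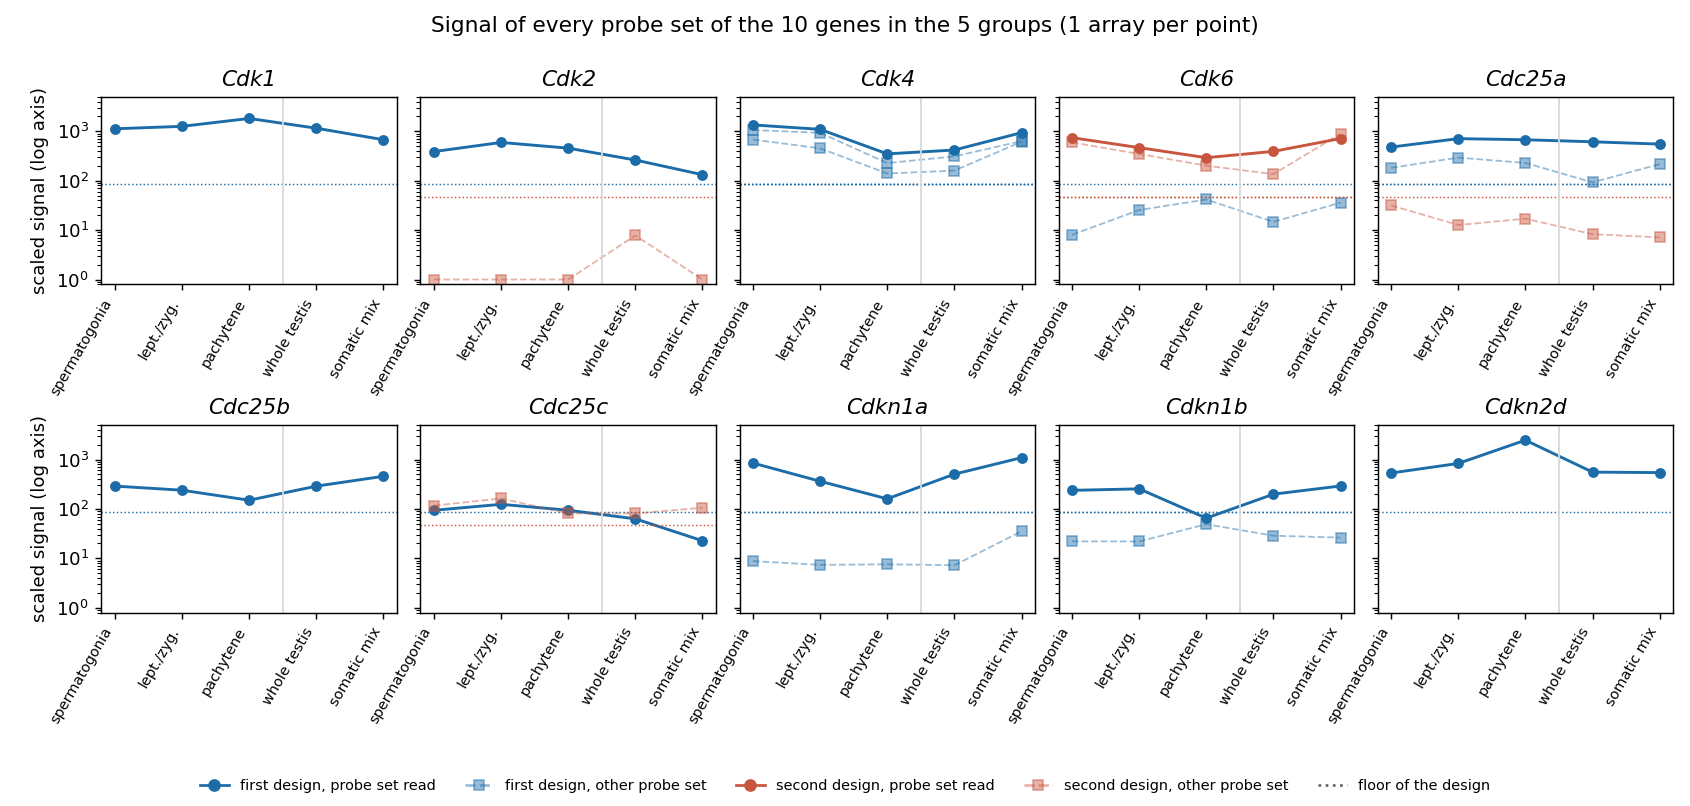
Scaled signal (log axis) of all 20 probe sets of the 10 genes in the 5 groups, 1 array per point, with the probe set read for each gene as a solid line, other probe sets dashed, the floor of each design dotted, and signals under 1 drawn at 1. Cdkn2d peaked at 2464 in pachytene, while Cdk4, Cdk6, Cdc25b, Cdkn1a and Cdkn1b had their lowest signal of the 5 groups there in the probe set read.

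Cdk1, the kinase of M phase, was present in every group and was highest in pachytene. Its 1 probe set had a signal of 1123 in spermatogonia, 1257 in leptotene/zygotene, 1815 in pachytene, 1154 in whole testis and 674 in the somatic mix. Pachytene stood above and the somatic mix below the other groups, and spermatogonia, leptotene/zygotene and whole testis did not differ beyond the error limit. Cdk1 was higher in pachytene than in leptotene/zygotene by 0.53 ± 0.21 on the log2 scale (error, 1 array per group). This lay within the limit of 0.41 in 1 of 5 scalings of the arrays, the values as deposited (0.19). Against whole testis the pachytene fraction was higher by 0.65 (0.35, within the limit of 0.46, as deposited) and against spermatogonia by 0.69, the latter beyond the limit in all 5 scalings.

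Cdk2, the kinase that meiotic prophase requires in males, was higher in the germ cell fractions than in whole testis or the somatic mix. Its signal was 388 in spermatogonia, 594 in leptotene/zygotene, 455 in pachytene, 262 in whole testis and 132 in the somatic mix. All 3 fractions lay above whole testis, and whole testis above the somatic mix. Spermatogonia exceeded whole testis by 0.57, only just beyond the limit of 0.54, and this pair was not compared under the other scalings. Leptotene/zygotene exceeded spermatogonia by 0.61 ± 0.18, beyond the limit of 0.35 in all 5 scalings, and pachytene was 0.38 below leptotene/zygotene, within the limit of 0.41. The sign of that last difference turned under scaling to the shared probe sets (0.17). Cdk2 was at least 4-fold higher in leptotene/zygotene than in the somatic mix (4.50-fold), as were 5.36% of the 14762 genes measured in that comparison, and 3.45-fold higher in pachytene. A second Cdk2 probe set, on the companion design, was below the floor in all 5 groups.

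Cdk4, the G1 kinase of the D-type cyclins, was high in spermatogonia and leptotene/zygotene and low in pachytene. Its brightest probe set read 1344 in spermatogonia, 1094 in leptotene/zygotene, 349 in pachytene, 417 in whole testis and 936 in the somatic mix. Spermatogonia and leptotene/zygotene did not differ beyond their limit, nor did leptotene/zygotene and the somatic mix. A gap of 1.17 (log2) separated these from whole testis and pachytene, which did not differ and whose order turned in 3 of the other scalings. From leptotene/zygotene to pachytene Cdk4 was lower by 1.65 ± 0.21, a 3.14-fold difference just short of the 4-fold threshold. The suffix of this probe set marks possible cross-hybridisation, and the other 2 Cdk4 probe sets gave -2.04 and -1.69 for the same step. Against spermatogonia the 3 probe sets gave -1.95, -2.22 and -2.28. Cdk4 was lower beyond the limit in all 5 scalings between leptotene/zygotene and pachytene, from -1.99 as deposited to -1.10 with the shared probe sets. Against spermatogonia it passed 4-fold as deposited (-2.11).

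Cdk6, the other partner of the D-type cyclins, could be read only on the second design. Its signal was 741 in spermatogonia, 466 in leptotene/zygotene, 292 in pachytene, 391 in whole testis and 713 in the somatic mix. By this probe set spermatogonia and the somatic mix were highest and did not differ, and pachytene was lowest without differing from whole testis beyond the limit. Cdk6 was lower in leptotene/zygotene than in spermatogonia by 0.67 ± 0.18 in the main scaling and beyond the limit in all 5. The next difference, pachytene less leptotene/zygotene, was -0.68 ± 0.21, but it was beyond the limit in only 2 of 5 scalings and was -0.02 with the shared probe sets. A second Cdk6 probe set on the same arrays gave -0.78 and -0.79 for these steps. That probe set put whole testis at 136 and the somatic mix at 897, so the difference between whole testis and the somatic mix was -0.87 by one probe set and -2.72 by the other, with -1.80 for their average. Against whole testis, the Cdk6 difference in pachytene (-0.42, within the limit) turned sign in 2 scalings and with that average. By the second probe set whole testis was lowest, and pachytene (201) was higher by 0.57, beyond the limit of 0.46. The Cdk6 probe set on the first design was below the floor throughout.

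The kinases thus diverged on the same arrays. The change from leptotene/zygotene to pachytene was 2.18 ± 0.29 log2 greater for Cdk1 than for Cdk4 and 1.27 greater for Cdk2 than for Cdk4, both beyond the limit of 0.58 for such a difference, and this quantity does not depend on a scaling factor of the array. The promoter windows of Cdk1 and Cdk4, the kinases with the widest gap in this step, are shown with that of Cdkn2d, the member that rose. They run from 250 bases before to 50 after the RefSeq start site (GRCm38.p6) and read 5′ to 3′ along the gene. Capitals mark matches, on either strand, to 4 motifs. They are TTTGAA, the core of the cell cycle homology region; CCAAT, the binding site of NF-Y; TTTNNCGC, an E2F-type site; and TGACGTCA, the cAMP response element. No matches overlapped in these windows.
Cdk1, chr10:69352863-69353162, minus strand: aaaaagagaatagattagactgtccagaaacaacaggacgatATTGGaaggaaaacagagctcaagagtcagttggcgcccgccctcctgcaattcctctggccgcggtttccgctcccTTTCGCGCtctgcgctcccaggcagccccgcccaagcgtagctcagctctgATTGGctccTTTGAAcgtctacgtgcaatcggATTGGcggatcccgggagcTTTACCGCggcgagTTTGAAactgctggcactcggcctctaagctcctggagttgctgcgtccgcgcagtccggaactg
Cdk4, chr10:127063285-127063584, plus strand: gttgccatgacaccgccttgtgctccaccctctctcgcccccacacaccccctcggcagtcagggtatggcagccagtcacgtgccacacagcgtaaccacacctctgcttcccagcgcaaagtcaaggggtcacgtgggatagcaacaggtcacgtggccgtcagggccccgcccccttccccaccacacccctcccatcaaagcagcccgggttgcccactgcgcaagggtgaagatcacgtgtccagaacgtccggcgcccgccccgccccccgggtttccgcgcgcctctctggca
Cdkn2d, chr9:21291160-21291459, minus strand: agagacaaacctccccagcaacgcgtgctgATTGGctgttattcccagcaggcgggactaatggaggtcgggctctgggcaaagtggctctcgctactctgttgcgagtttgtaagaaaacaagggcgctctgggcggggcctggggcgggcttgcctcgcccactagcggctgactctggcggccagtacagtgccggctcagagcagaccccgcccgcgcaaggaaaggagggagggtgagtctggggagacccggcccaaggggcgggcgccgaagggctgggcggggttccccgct
The Cdk1 window held 2 matches to TTTGAA, starting at -71 and -15 relative to the start site, 3 to CCAAT and 2 to TTTNNCGC. The Cdk4 window held none of the 4 motifs and the Cdkn2d window held 1 CCAAT match at -220. Over the 10 windows of 9 members (all but Cdc25c), Cdk1 alone held TTTGAA, 6 held CCAAT, 4 held TTTNNCGC (Cdk1, Cdk2, Cdk6 and Cdc25a) and 0 held TGACGTCA. Among all 32851 windows of the table, 17.9%, 37.4%, 5.17% and 1.79% held these motifs. A match describes the letters of the window only.

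No measured difference of a CDC25 phosphatase reached 4-fold. Those of Cdc25c against whole testis and the somatic mix were lower bounds, so a 4-fold difference there cannot be denied. In the 5 main comparisons 0.279% to 12.1% of all genes passed 4-fold in a given direction. Cdc25a, which acts on CDK2 and CDK1 from late G1 onward, had a signal of 478 in spermatogonia, 709 in leptotene/zygotene, 673 in pachytene, 612 in whole testis and 550 in the somatic mix. With the groups ordered by level (leptotene/zygotene, pachytene, whole testis, somatic mix, spermatogonia) no neighbours differed beyond their limit. Leptotene/zygotene and spermatogonia, the ends of that order, differed, and of the 5 main comparisons only this one (0.57 ± 0.18) was beyond the limit in all 5 scalings. A dimmer Cdc25a probe set gave 0.68 for that step, but it read 92.3 in whole testis and 216 in the somatic mix. Whole testis less the somatic mix was therefore -1.23 by the dimmer probe set, 0.16 (within the limit) by the brighter one and -0.54 by the average, in which the sign turned. Against whole testis the dimmer probe set was higher in spermatogonia (0.98), leptotene/zygotene (1.66) and pachytene (1.31). By the brighter one these differences were within the limit.

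Cdc25b, which activates CDK1 at the start of mitosis, was lowest in pachytene. Its signal was 290 in spermatogonia, 239 in leptotene/zygotene, 150 in pachytene, 289 in whole testis and 458 in the somatic mix. The somatic mix was highest and pachytene lowest, and the 3 groups between them did not differ. Pachytene differed from leptotene/zygotene by -0.67 ± 0.21, which was beyond the limit in 2 of 5 scalings and was -0.12 with the shared probe sets. Pachytene lay below whole testis by 0.95 (log2), beyond the limit in all 5.

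Cdc25c, a phosphatase of CDK1 at the transition into M phase, was near the floor. Its probe set read 93.9 in spermatogonia, 124 in leptotene/zygotene, 94.1 in pachytene, 63.1 in whole testis and 22.7 in the somatic mix, the last pair under the floor of 87.3. It was above the floor in the 3 germ cell fractions and in neither of the other groups. Leptotene/zygotene exceeded spermatogonia by 0.40 ± 0.18, and by 0.25 with the shared probe sets, which is within the limit of 0.35. The difference was 0.48 on a second probe set of the companion design that is marked for possible cross-hybridisation. That probe set read 117, 163, 81.2, 81.2 and 106 in the same order of groups, so it did not show the low somatic mix. It was lower in pachytene than in leptotene/zygotene by 1.00, against 0.40 on the first design, within the limit there. On the first design Cdc25c was at least 1.42-fold higher in leptotene/zygotene than in whole testis or the somatic mix, which is only just beyond the limit against the latter.

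The inhibitors went in opposite directions: Cdkn2d rose towards pachytene, Cdkn1a fell and Cdkn1b was lower there. Cdkn2d, the INK4 inhibitor also called p19, had a signal of 534 in spermatogonia, 833 in leptotene/zygotene, 2464 in pachytene, 556 in whole testis and 543 in the somatic mix. Pachytene stood far above the rest, leptotene/zygotene was next, and whole testis, the somatic mix and spermatogonia did not differ. Leptotene/zygotene exceeded whole testis by 0.58 (limit 0.46) in the main scaling, and this pair was not compared under the others. Cdkn2d was higher in leptotene/zygotene than in spermatogonia by 0.64 ± 0.18, and in pachytene than in leptotene/zygotene by 1.57 ± 0.21 (2.96-fold), both beyond the limit in all 5 scalings. It rose 4.62-fold from spermatogonia to pachytene (log2 2.21 ± 0.24; 10.0% of 13705 genes rose in that comparison) and was 4.43-fold higher in pachytene than in whole testis (2.35% of 13845 genes). It was 4.54-fold higher in pachytene than in the somatic mix, as were 11.6% of 15032 genes. The call against whole testis was lost with the values as deposited (1.84 on the log2 scale) and with the floor added to each signal (1.99). With the shared probe sets the step from leptotene/zygotene passed 4-fold as well (2.12). The gene was read by 1 probe set, so no second reading was at hand. Mice lacking both Cdkn2d and its relative Cdkn2c are known to be male-sterile.

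Cdkn1a, the CIP/KIP inhibitor p21 and a target of p53, went down step by step. Its signal was 848 in spermatogonia, 363 in leptotene/zygotene, 160 in pachytene, 506 in whole testis and 1090 in the somatic mix. Each fraction differed from the next, whole testis lay between spermatogonia and leptotene/zygotene, and only the somatic mix and spermatogonia did not differ. The steps were -1.22 ± 0.18 and -1.18 ± 0.21, and both were lower beyond the limit in all 5 scalings; with quantile normalization the second was -0.60. Cdkn1a fell 5.29-fold from spermatogonia to pachytene (log2 -2.40 ± 0.24), where 12.1% of all genes fell, and was 6.80-fold lower than in the somatic mix (12.2% of genes). The fall against spermatogonia no longer reached 4-fold with quantile normalization (-1.92) or the shared probe sets (-1.83). A higher floor (-1.92) and the floor added to the signal (-1.92) also brought it under that threshold. Another Cdkn1a probe set was below the floor in all 5 groups. The summed Sertoli, Leydig and peritubular and stromal markers, given above, fell in the same order of fractions, and their part in this decrease was not tested.

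Cdkn1b, the CIP/KIP inhibitor p27, was level until pachytene. Its signal was 238 in spermatogonia, 255 in leptotene/zygotene, 65.1 in pachytene, 199 in whole testis and 292 in the somatic mix. The 4 groups other than pachytene did not differ from their neighbours in level, and pachytene was under the floor. Cdkn1b was at least 2.92-fold lower in pachytene than in leptotene/zygotene and at least 2.28-fold lower than in whole testis, beyond the limit in all 5 scalings. A second probe set was under the floor in all 5 groups. Between leptotene/zygotene and pachytene, Cdkn2d thus moved apart from Cdkn1a by 2.75 ± 0.29 log2 and from Cdk4 by 3.22, beyond the limit of 0.58, on the same arrays.

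**Figure D2:**
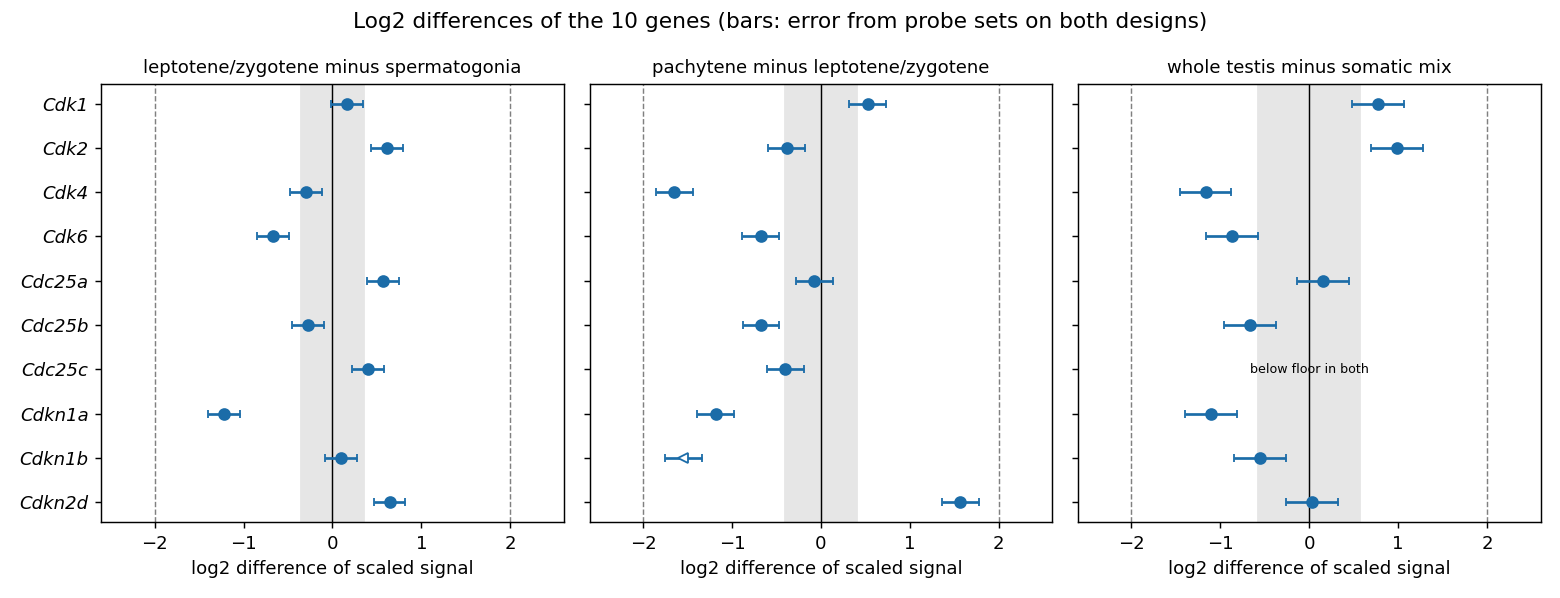
Log2 differences of scaled signal for the 10 genes in 3 comparisons, with bars of 1 error either way, the band within the 95% limit in grey, dashed lines at 4-fold and an open triangle for a lower bound. By the probe set read no gene reached 4-fold in these comparisons, and Cdkn2d (1.57) and Cdk4 (-1.65) came nearest to it between leptotene/zygotene and pachytene.

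Leptotene/zygotene was set against spermatogonia, 2 fractions that also differed in age and in the marker signals given above. Of the 10, 4 were higher (Cdk2, Cdc25a, Cdc25c and Cdkn2d), against 24.1% of 12919 genes, and 2 were lower (Cdk6 and Cdkn1a), against 22.2%. With the shared probe sets 3 were higher, as Cdc25c (0.25) came within the limit. With quantile normalization 3 were lower, Cdk4 (-0.37) being the third. The median of the 10 was 0.13, and that of all genes measured was 0.02. No member rose or fell, and over all genes 0.310% rose and 0.279% fell.

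From leptotene/zygotene to pachytene the differences ran further in both directions. Of the 10, 5 were lower (Cdk4, Cdk6, Cdc25b, Cdkn1a and Cdkn1b), against 44.0% of 13523 genes, and 2 were higher (Cdk1 and Cdkn2d), against 30.0%. The share of members that were lower is therefore near that of all genes. None reached 4-fold by the probe set read, although another Cdk4 probe set did (-2.04). Over all genes 8.70% rose and 9.33% fell. The median of the 10 was -0.54 against -0.22 over all genes. The scaling mattered in this step: 3 members were higher and 3 lower with the shared probe sets, 2 and 3 with median scaling, 2 and 4 with quantile normalization, and 1 and 7 as deposited. The median of the 10 ran from -0.73 as deposited to 0.07 with the shared probe sets, so its sign turned. For genes that passed the floor in each of the fractions the median was -0.25, and it moved up by 0.18 under quantile normalization, by 0.31 when arrays were scaled to their median and by 0.47 when they were scaled to the shared probe sets. Of the genes past 4-fold 48.2% were higher, against 58.9%, 66.7% and 77.7% in those scalings and 42.7% as deposited. In all 5 scalings Cdk4, Cdkn1a and Cdkn1b stayed lower and Cdkn2d stayed higher beyond the limit. The signs of Cdk2, Cdc25a and Cdc25c turned in at least 1 scaling.

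**Figure D3:**
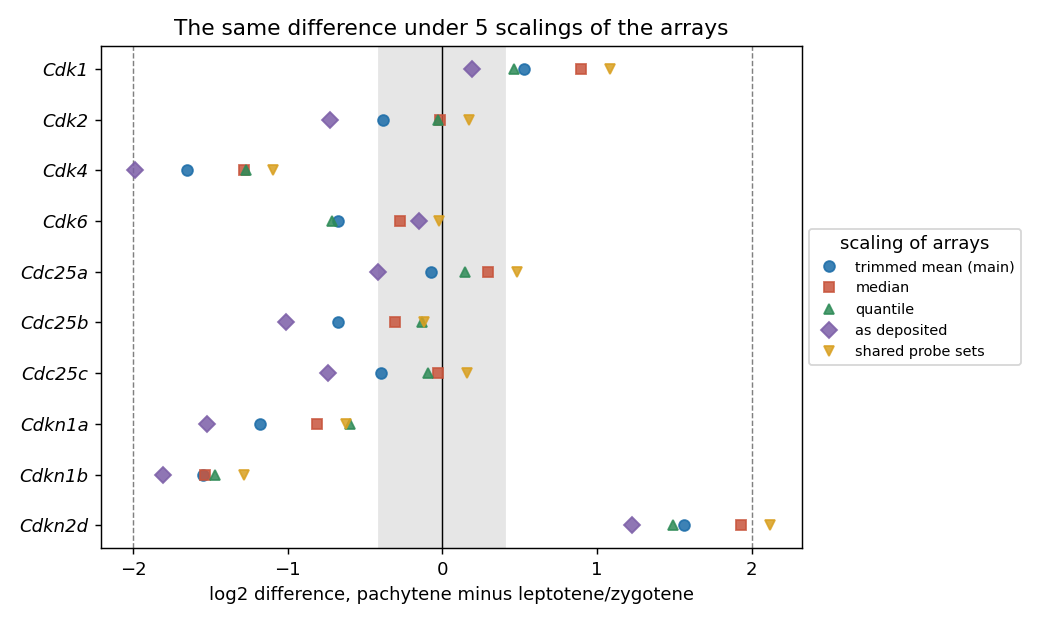
Log2 difference between pachytene and leptotene/zygotene for each gene under 5 scalings of the arrays, 1 point per scaling, with the 95% limit of the main scaling in grey and dashed lines at 4-fold. Cdk4, Cdkn1a and Cdkn1b lie left of the grey band and Cdkn2d right of it under every scaling, whereas the points of Cdc25a run from -0.41 to 0.48.

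Across the whole span from spermatogonia to pachytene, 3 members were higher (Cdk1, Cdc25a and Cdkn2d; 29.8% of all genes) and 5 lower (Cdk4, Cdk6, Cdc25b, Cdkn1a and Cdkn1b; 42.6%). In the other scalings 2 to 4 were higher and 4 or 5 lower: Cdk2 was higher in 3 of 5, Cdc25a in 4 of 5, and Cdc25b was lower in 3 of 5. This comparison uses the same arrays as both steps and adds no independent reading. Against whole testis, which contains spermatocytes among its other cells, the pachytene fraction was higher for Cdk1, Cdk2 and Cdkn2d (25.7% of all genes) and lower for Cdc25b, Cdkn1a and Cdkn1b (38.2%). By other probe sets Cdc25a (1.31) and Cdk6 (0.57) were higher there too, whereas the probe sets read were within the limit. Whole testis also held signal of somatic organ markers, given above, whose part in this comparison was not tested. Over the other scalings 2 to 5 members were higher and 3 or 4 lower. No member was 4-fold lower there, as 4.39% of all genes were.

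Whole testis was set against the somatic mix as a background from other organs. It held signal of the somatic organ markers itself, as given above. Cdk1 (0.78 ± 0.29) and Cdk2 (0.99) were higher in whole testis (29.0% of 14989 genes), and Cdk4 (-1.17), Cdk6 (-0.87), Cdc25b (-0.66) and Cdkn1a (-1.11) were lower (30.6%). Cdc25a, Cdkn1b and Cdkn2d lay within the limit of 0.57, and Cdc25c was under the floor on both arrays. No member differed 4-fold by the probe set read, where 7.22% of all genes were higher and 5.70% lower. The second Cdk6 probe set did (-2.72). Cdk6 (-0.52) and Cdc25b (-0.44) came within the limit with the values as deposited, and Cdc25b also with median scaling (-0.47). The germ cell fractions were set against the somatic mix too. Of the 10 genes in spermatogonia, none was 4-fold higher (3.91% of all genes) or lower (6.51%). In leptotene/zygotene Cdk2 was 4-fold higher and none was 4-fold lower (7.25%), and in pachytene Cdkn2d was higher and Cdkn1a lower. These calls are by the probe set read. In pachytene another probe set of Cdk4 (-2.13) and another of Cdk6 (-2.16) were also 4-fold lower.

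The partners and regulators of these kinases were described with 5 lists, of which 46 of 47 genes had a probe set that named 1 gene only. No value was read for Ccnb1, a B-type cyclin gene. Between leptotene/zygotene and pachytene 6 of the 45 measured rose (8.70% of all genes did) and 6 fell (9.33%), with a median of -0.44 (-0.22 over all genes). These counts moved with the scaling: 5 to 8 rose, 1 to 8 fell, and the median ran from -0.78 as deposited to 0.12 with the shared probe sets. The genes that passed 4-fold in all 5 scalings were Ccna1, Spdya, Pkmyt1 and Cdk20 upward and E2f1 downward. The other genes named as risen or fallen were higher or lower beyond the limit in all 5.

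Among the partners, which are cyclins and small binding proteins, 2 of 12 rose and 2 fell (8.70% and 9.33% of all genes). Higher beyond the limit were 4 (30.0% of all genes) and lower 7 (44.0%). Over the 5 scalings 2 or 3 rose, 0 to 3 fell and 6 to 8 were lower. Spdya, the non-cyclin activator of CDK2 at meiotic telomeres, rose 7.51-fold, from a signal of 325 to 2440, and was 111 in spermatogonia and 15.1, below the floor, in the somatic mix. Ccna1, the meiotic A-type cyclin, rose at least 23.6-fold, from below the floor to 2062. Ccna2, the A-type cyclin of dividing cells, fell from 1496 to 344, and Ccnd2, a D-type cyclin gene, fell from 1936 to 398; they passed 4-fold in 2 and 3 of the 5 scalings. The other D-type cyclin genes were lower by 1.54 (Ccnd1) and 1.67 (Ccnd3) in log2, beside -1.65 for their partner Cdk4, and all were lower in every scaling. In the other direction Ccnb2, a B-type cyclin and partner of CDK1, went from 865 to 3390, a difference of 1.97 that passed 4-fold in 2 of 5 scalings, and Cks2, a small CDK-binding protein, was higher by 1.02; both were higher in every scaling.

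Among 6 regulators of CDK phosphorylation, 2 rose and none fell (8.70% and 9.33% of all genes). Pkmyt1, which adds the inhibitory phosphates to CDK1 that CDC25 removes, rose 5.16-fold from 243 to 1255. Cdkn3, a phosphatase that acts on the activating phosphate of CDK2, rose 5.88-fold from 392 to 2305 and passed 4-fold in 4 of 5 scalings. The differences of Wee1 (-0.46), the nuclear kinase that opposes CDC25, of Cdk7 (-0.62) and of Ccnh (-0.44) came within the limit in at least 2 scalings, and those of Wee1 and Ccnh turned sign with the shared probe sets. Among 4 other inhibitors, Cdkn2c, the INK4 relative of Cdkn2d, rose 4.93-fold from 491 to 2421, with 472 in spermatogonia and 766 in whole testis; it passed 4-fold in 4 of 5 scalings. The others, Cdkn1c (-0.45), Cdkn2a (-0.53) and Cdkn2b (-0.67), were lower beyond the limit in 2 of 5 scalings.

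Of 12 other kinases of the family 1 rose and 2 fell (8.70% and 9.33% of all genes). With the shared probe sets 2 rose and 0 fell. Cdk20 rose at least 8.72-fold to 761, Cdk16 fell 5.80-fold from 6378 to 1100 (4 of 5 scalings) and Cdk5 fell 5.42-fold from 1264 to 233 (3 of 5). The RB and E2F list holds transcription repressors and factors downstream of CDK4 and CDK2, and 7 of its 11 genes were lower (44.0% of all genes were) and 2 higher (30.0%). With the shared probe sets 5 were lower and 4 higher, and with median scaling 6 and 4. E2f1, an activator of S phase genes, fell at least 4.91-fold from 429 to below the floor. E2f6, a repressor, fell 4.62-fold from 470 to 102 and passed 4-fold in 2 of 5 scalings. The largest difference upward in that list was that of E2f4 (1.33). Against spermatogonia, 21 of 42 measured genes of the 5 lists were higher in leptotene/zygotene (24.1% of all genes) and 6 lower (22.2%), none by 4-fold (0.310% and 0.279%), from 1.55 for Spdya to -1.08 for Ccnd3.

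**Figure D4:**
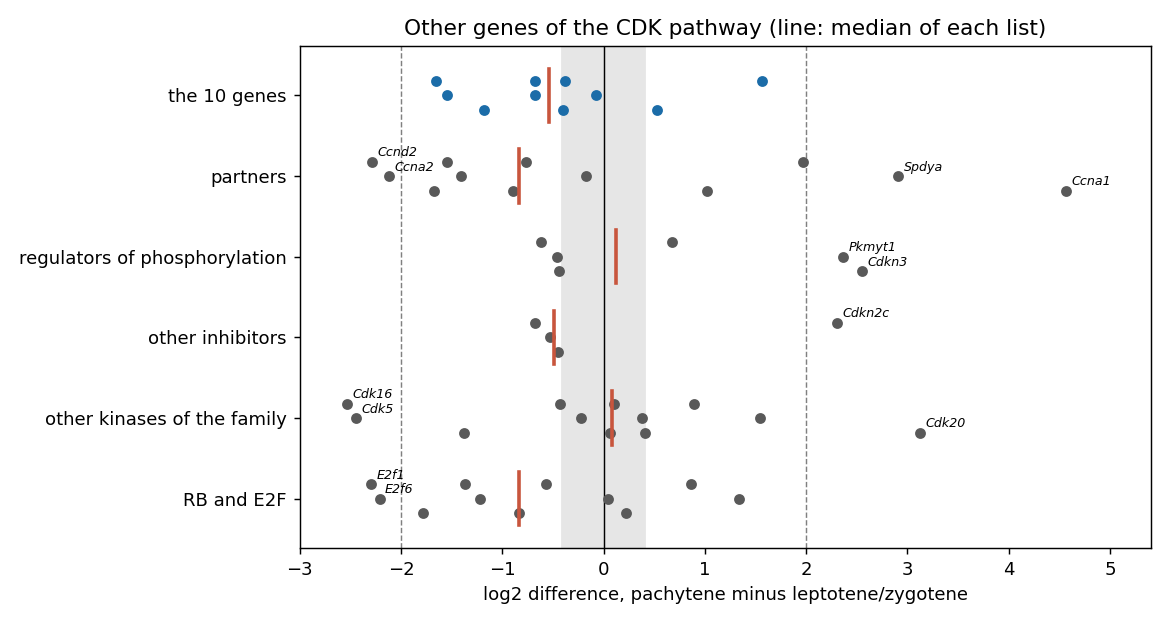
Log2 difference between pachytene and leptotene/zygotene for the 10 genes and the 5 lists of partners and regulators, 1 point per gene, with the median of each list as a red line, the 95% limit in grey and dashed lines and names at 4-fold. The 10 genes stay within 4-fold by the probe set read, while Ccna1, Spdya, Cdk20, Cdkn3, Pkmyt1 and Cdkn2c rose and Cdk16, Cdk5, Ccnd2, E2f1, E2f6 and Ccna2 fell.

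The genes with the most similar profile over the 5 groups were sought among 10425 genes of the first design for the kinase, the phosphatase and the inhibitor with the widest range by the probe set read on that design. For Cdk2 these were Rbm15, Yrdc and Tfpt, at root mean square log2 differences of 0.13, 0.14 and 0.15 and Pearson r of 0.99, 0.98 and 0.99. For Cdc25b they were Grn, Tbcd and Naa60 (0.047, 0.058 and 0.073), and for Cdkn1a they were Tmbim1, Gstt1 and Gusb (0.061, 0.11 and 0.13), all with r of 0.99 or 1.00 over the 5 groups. The points share their arrays and scaling, and with 5 groups many profiles are alike.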

How the data were processed

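Each array's deposited table holds 1 linear signal intensity for every probe set, and the submitters' processing notes name GCOS 1. For its scaling target, background correction and detection calls: not given in the sources used here. Nor do the labels say whether both samples of a group were prepared separately.

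Each array was scaled to the mean of the 2% trimmed means of the 5 arrays of its design. The floor was the 90th percentile of 65 olfactory and vomeronasal receptor probe sets on the first design; on the second, where 15 such probe sets did not reach the required 20, it was the overall median signal. Probe sets were named through the platform annotation, updated by Entrez ID to GRCm38.p6 symbols; 20380 and 14661 named 1 gene, 691 and 245 several, 1555 and 7605 none, and 20351 and 14486 matched an Entrez gene. A gene's value came from whichever of its probe sets had the greatest mean of log2 signals, taken on the first design if one passed the floor there (9 of the 10 members; Cdk6 on the second). For the error, the log2 differences of 100 probe sets shared by the designs were compared, and their root mean square gap was divided by √2. Calls were at 4-fold; the procedure was tested on simulated data. Python 3.11.15, numpy 2.4.6, pandas 2.3.3 and scipy 1.17.1 were used. All 10 members were described; from the other lists, genes past 4-fold and extremes were named, and some further genes after their values were seen. The nearest profiles were the 3 with the smallest root mean square difference. Promoter windows are RefSeq's. The members and lists were chosen with earlier results of these data known. Alternatives were other scalings, floors, probe set rules, designs and a 2-fold call.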

Additional observations from a re-analysis of the deposited data

How the results depend on the processing

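Of 436 single differences of members under the alternatives, 314 stayed within 1 error of their main value, 122 moved further, no called one reversed, and 20 had the other sign from a main value that had not reached 4-fold. Members 4-fold lower in pachytene than in spermatogonia numbered 1 in the main setting. There were 0 with quantile normalization, with scaling to the shared probe sets, with the floor at the 60th percentile and with the floor added to the signal, and 2 with the values as deposited (Cdk4 besides Cdkn1a). With the mean over probe sets there was 1, Cdk4. Cdkn1a was not measured in that setting, because its average with a probe set below the floor lay below the floor in both groups. Members 4-fold higher in pachytene than in whole testis were 1, and 0 as deposited and with the floor added. Members 4-fold higher in pachytene than in leptotene/zygotene were 0, and 1 with the shared probe sets. A call at 2-fold gave 1 lower member in leptotene/zygotene against spermatogonia (Cdkn1a), beside 440 higher and 618 lower of all 12919 genes measured. From leptotene/zygotene to pachytene it gave 1 higher and 3 lower members, beside 2430 and 3750 of 13523 genes. From spermatogonia to pachytene 4 members were lower, with 2725 genes higher and 4059 lower of 13705. The pachytene fraction had 2 members lower than whole testis (1761 genes higher and 2835 lower of 13845). Whole testis had 2 members lower than the somatic mix (2875 genes higher and 2759 lower of 14989). Leaving out either design, each count in pachytene against spermatogonia and the higher count against whole testis ran from 0 to 1; the second design alone measured 2 members. The other counts were within 1.5 times the main ones. No paired analysis was possible because the samples that share a replicate number lie on one array design, so no probe set of a member was read on more than 1 array per group, and the results come from no test. Signals near the floor, as for Cdc25c, limit what could be measured.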
